A study of Homo sapiens with 6 samples.

Results

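The cytosolic heat shock chaperones and their regulator HSF1 were examined as 10 genes of the 19792 listed by symbol for BT-549 cells. The genes are HSPA1A, HSPA1B, HSPA8, HSPH1, HSP90AA1, HSP90AB1, HSPB1, DNAJB1, BAG3 and HSF1. They were picked by name as stress-inducible and cytosolic chaperones, and the group was selected on earlier results of these same data, in which the listed difference between treatments was in view. All 10 are listed. BT-549 is an established line of triple-negative breast cancer. A tetracycline-inducible vector with puromycin resistance brought in a WDR5 shRNA, which is expressed once doxycycline (DOX) is added, and WDR5 is a shared subunit of the COMPASS H3K4 methyltransferases. The RNA-seq libraries comprise 3 of cultures given 0.1% DMSO as vehicle and 3 of cultures given 500 ng/ml DOX. All 6 libraries come from cells that hold the WDR5 shRNA, and the sources used here do not say whether the line is 1 clone.

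The measurement analysed here is the mean normalised count, which is the number of reads assigned to a gene, scaled for library size and averaged over all 6 libraries. It pools the vehicle and DOX cultures. Per-library values were not analysed here, so a level has no standard deviation, sequencing depth per library is unknown, and no difference between DOX and vehicle was computed or tested. WDR5, the targeted gene, had a mean normalised count of 1143, but a pooled mean cannot show its silencing. The label of the line was checked against markers. VIM, the mesenchymal intermediate filament vimentin, had a mean normalised count of 47782, whereas the hormone receptor genes ESR1 and PGR stood at 0.790 and 0.801. The epithelial adhesion genes EPCAM and CDH1 stood at 1.30 and 59.6. ERBB2, which encodes the HER2 receptor, was measured at 1221. Its level of 268 per kilobase of transcript lay above 54.2% of the ranked genes defined below, so this marker was not low. For comparison between genes, levels were divided by the length of the canonical transcript in GENCODE, and ranks were taken among the 12359 protein-coding genes with a mean normalised count of at least 10.

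Heat shock proteins hold other proteins in a folded or foldable state. HSP70 proteins bind exposed stretches of client chains in cycles of ATP hydrolysis. J-domain proteins such as DNAJB1 start these cycles, and nucleotide exchange factors such as HSPH1 and BAG3 end them. HSP90 takes clients from HSP70 and holds kinases and receptors near their active form, whereas small heat shock proteins such as HSPB1 keep unfolded chains soluble without ATP. HSF1 is held inactive by chaperones in unstressed cells. On proteotoxic stress it forms trimers that bind heat shock elements, which are runs of GAA units in alternating orientation, and it drives transcription of most of the genes described here.

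The promoters of the group were read to see which of them hold such an element. The RefSeq promoter table on GRCh38.p14 gives 300 bases for each start site, 250 before and 50 after it, and it holds 14 promoters for 9 of the 10 genes. HSF1 was not matched and is named only. The motif searched was GAANNTTCNNGAA or, on the other strand, TTCNNGAANNTTC, so that 3 units are separated by 2 bases each. This exact form was present for HSPA8, HSP90AA1 and HSP90AB1, hence 3 of 9 genes, and in 0.608% of the 27305 genes in the table. With 1 mismatch allowed in an outer unit, it was present for 7 of 9 genes and in 5.16% of all genes. The further 4 genes were HSPA1A, HSPA1B, HSPB1 and DNAJB1. No match was present in these windows for HSPH1 and BAG3. The shorter form of 2 units, GAANNTTC or TTCNNGAA, lies within the longer ones, and it occurred in the same 7 genes and in 16.2% of all genes. A match describes the letters only, and binding of HSF1 was not measured. Since most of the group are known HSF1 targets, a higher share than in all genes is largely set by how they were chosen.

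The matching stretches are printed because they are the sequence feature that the regulator is known to read. The flanks are 20 bases where the window allows. In the 3 genes with exact matches, capitals mark only the 13 bases of each exact match, and matches with 1 mismatch that overlap or lie near them are in lower case, such as 1 that begins at -73 in HSP90AA1. In the other 4 genes, capitals mark the matches with 1 mismatch. For the genes with exact matches, the stretches are chr14:102087100-102087152 on the minus strand for HSP90AA1, chr6:44247758-44247863 on the plus strand for HSP90AB1 and chr11:123062159-123062386 on the minus strand for HSPA8.
HSP90AA1: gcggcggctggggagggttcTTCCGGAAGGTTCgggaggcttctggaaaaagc
HSP90AB1: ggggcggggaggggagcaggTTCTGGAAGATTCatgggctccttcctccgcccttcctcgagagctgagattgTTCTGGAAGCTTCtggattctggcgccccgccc
HSPA8: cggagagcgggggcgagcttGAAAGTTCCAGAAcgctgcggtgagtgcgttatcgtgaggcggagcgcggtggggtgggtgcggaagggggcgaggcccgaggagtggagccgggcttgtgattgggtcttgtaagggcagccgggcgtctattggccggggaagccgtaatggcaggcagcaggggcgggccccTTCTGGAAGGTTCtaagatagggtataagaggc

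HSP90AB1 and HSPA8 each hold 2 separate exact matches, and HSP90AA1 holds 1. For the genes with 1 mismatch in an outer unit, the stretches are chr6:31815417-31815469 for HSPA1A, chr6:31827613-31827665 for HSPA1B and chr7:76302471-76302523 for HSPB1, all on the plus strand, and chr19:14518417-14518494 on the minus strand for DNAJB1.
HSPA1A: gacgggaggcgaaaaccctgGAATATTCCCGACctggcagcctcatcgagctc
HSPA1B: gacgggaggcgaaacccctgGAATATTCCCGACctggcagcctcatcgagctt
HSPB1: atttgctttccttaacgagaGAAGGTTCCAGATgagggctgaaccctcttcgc
DNAJB1: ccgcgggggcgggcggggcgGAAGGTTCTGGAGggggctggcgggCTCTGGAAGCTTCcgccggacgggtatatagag

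HSPA1A and HSPA1B share the same 13 letters at the match, and over 249 aligned bases before their start sites the 2 promoters were 94.4% identical. Counted with the start site as base 1 and the base before it as -1, the match begins at -106 in HSPA1A and at -105 in HSPA1B. In HSPA8, the exact matches begin at -230 and -55. In HSP90AB1, which has 3 promoters in the table, they begin at -165 and -112 of 1 promoter. The match of HSP90AA1 begins at -88 of 1 of its 2 promoters. DNAJB1 has 3 promoters, and beside the pair of matches printed, a further match with 1 mismatch begins at 2, after the start, in another of them. Over the whole table, the median level was 237 per kilobase for the 45 ranked genes with 3 exact units and 238 per kilobase for the 9683 without them.

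**Figure D1:**
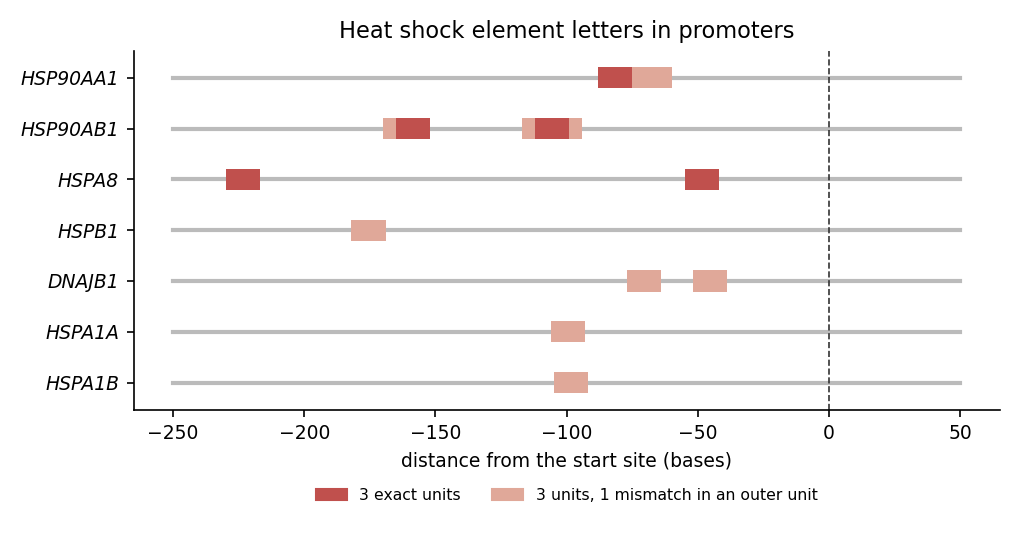
The position of each 3-unit match (boxes, 13 bases wide) is plotted against the distance from the start site in bases for the 7 genes with a match before the start; for genes with several promoters, the 1 with that match is drawn. Dark boxes, the exact form, are present for HSP90AA1, HSP90AB1 and HSPA8, and pale boxes, the form with 1 mismatch, begin between -182 and -52 for the other 4 genes and also lie beside the exact matches of HSP90AA1 and HSP90AB1.

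All 10 genes were expressed at or above the level of 81.2% of the ranked genes per kilobase of canonical transcript. This floor was lower on other lengths. The lowest gene was HSPA1B in the top 32.6% by coding length and DNAJB1 in the top 26.6% by the union of exons. The median level of the 10 was 2068 per kilobase, against 231 per kilobase for all 12359 ranked genes. The levels differed by 39.4-fold between the highest, HSP90AA1, and the lowest, HSPA1B, although DNAJB1 was lowest when the length was the union of all annotated exons. The order per kilobase was HSP90AA1, HSP90AB1, HSPA8, HSPB1, HSPH1, HSF1, DNAJB1, HSPA1A, BAG3 and HSPA1B. Without a spread between libraries, none of the neighbours in this order can be shown to differ. The closest neighbours were HSP90AB1 and HSPA8, whose levels per kilobase differed by 1.01-fold, HSPA1A and BAG3 by 1.04-fold, and HSF1 and DNAJB1 by 1.06-fold. The widest gap in this order was that of 2.97-fold between HSPB1 and HSPH1. By coding length and by the union of exons it lay between HSPA8 and HSPB1 instead, at 25589 against 10460 and 10227 against 3963. In mean normalised count, HSPH1 was above HSPB1, at 14603 against 6433. Together the 10 genes held 0.940% of the summed means of protein-coding genes, and HSP90AA1, HSP90AB1 and HSPA8 held 86.3% of the sum of the 10.

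**Figure D2:**
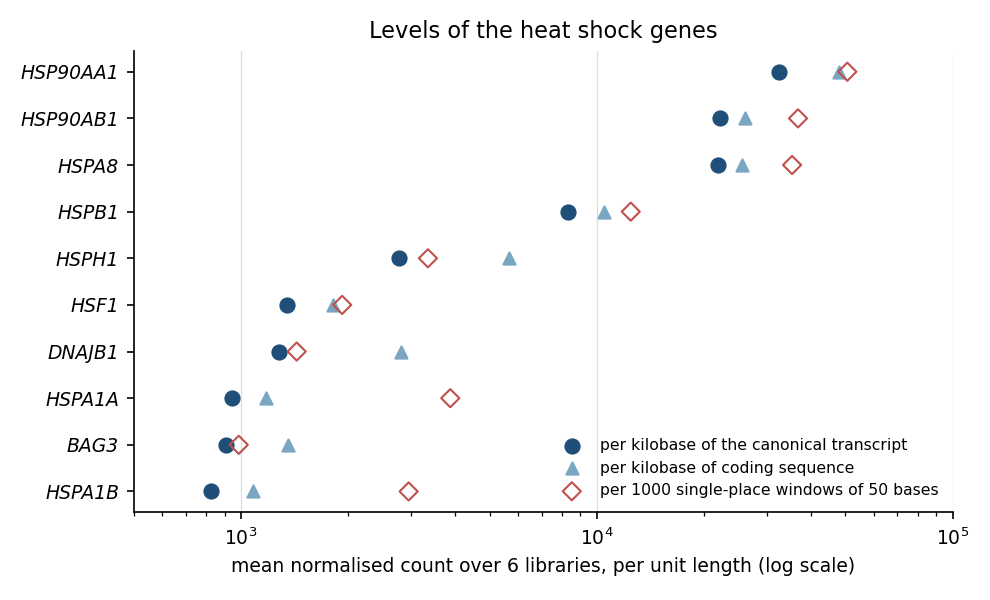
The mean normalised count over 6 libraries is plotted on a log axis for each gene, per kilobase of the canonical transcript (circles), per kilobase of coding sequence (triangles) and per 1000 exon windows of 50 bases that occur once in the genome (diamonds). HSP90AA1, HSP90AB1 and HSPA8 have circles at 32552, 22200 and 21905 per kilobase, and the diamonds of HSPA1A and HSPA1B lie 4.10 and 3.59 times above their circles.

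The regulator HSF1 lies on chromosome 8 of GRCh38 (GENCODE 44) from 144291591 to 144314720. Its mean normalised count was 2885, and its level was 1352 per kilobase, with 88.7% of the ranked genes below it. HSF1 protein is regulated mainly after translation, so the transcript says little of its activity. A list of 9 genes holds the other heat shock factors and 2 partners, HSF2BP and HSBP1. Of these 9, only 4 are listed, which are HSF2, HSF4 and the 2 partners. HSF2, which can form mixed trimers with HSF1, was measured at 300 per kilobase, 4.51-fold under HSF1 by canonical transcript and 1.89-fold under it by the union of all annotated exons. HSBP1, a small protein that binds the HSF1 trimer, stood at 297 per kilobase of canonical transcript. Its transcript has 8649 bases of which 228 are coding, so that per kilobase of coding sequence it stood at 11277, above HSF1 at 1818. HSF4 and HSF2BP stood at 187 and 20.8 per kilobase of canonical transcript.

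The HSP90 genes had the highest levels of the group. HSP90AA1, the stress-responsive cytosolic isoform, lies on chromosome 14 from 102080742 to 102139699 on the minus strand. Its mean normalised count was 105078, which ranked 8 among the 12359 genes, and its level of 32552 per kilobase ranked 23. HSP90AB1, the constitutive isoform, lies on chromosome 6 from 44246166 to 44253888. Its mean normalised count was 56721, and its level of 22200 per kilobase ranked 45. The HSP90AA1 level was 1.47-fold that of HSP90AB1 per kilobase, or 1.83-fold by coding length and 1.08-fold by the union of exons. The coding sequences of the pair were 76.1% identical over 2172 aligned bases. HSP90B1, the isoform of the endoplasmic reticulum, stood at 23711 per kilobase, and the summed cytosolic pair was 2.31-fold above it, or 7.87-fold by the union of exons. TRAP1, the mitochondrial isoform, stood at 1422 per kilobase.

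Among the HSP70 genes, the constitutive HSPA8 was far above the inducible pair. HSPA8, on chromosome 11 from 123057489 to 123063230 on the minus strand, had a mean normalised count of 49592 and a level of 21905 per kilobase, with rank 47. HSPA1A and HSPA1B are the classical heat-inducible genes, and each has a single exon. They lie on chromosome 6 on the plus strand, HSPA1A from 31815543 to 31817946 and HSPA1B from 31827738 to 31830254, with 9791 bases between them. HSPA1A had a mean normalised count of 2269 and a level of 945 per kilobase. HSPA1B had a mean normalised count of 2079 and a level of 826 per kilobase. Their sum was 1771 per kilobase, and HSPA8 was 12.4-fold above that sum. The fold was 5.78 by the union of exons and 5.18 per 1000 windows of 50 bases that occur once in the genome, a scale described with the near-identical sequence of the pair. HSPA1L, a gene known for expression in testis, is annotated on the opposite strand with its span stopping 259 bases before HSPA1A. It stood at 12.9 per kilobase. HSPA6, another gene known to be induced by stress, was listed with a mean normalised count of 1.06.

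**Figure D3:**
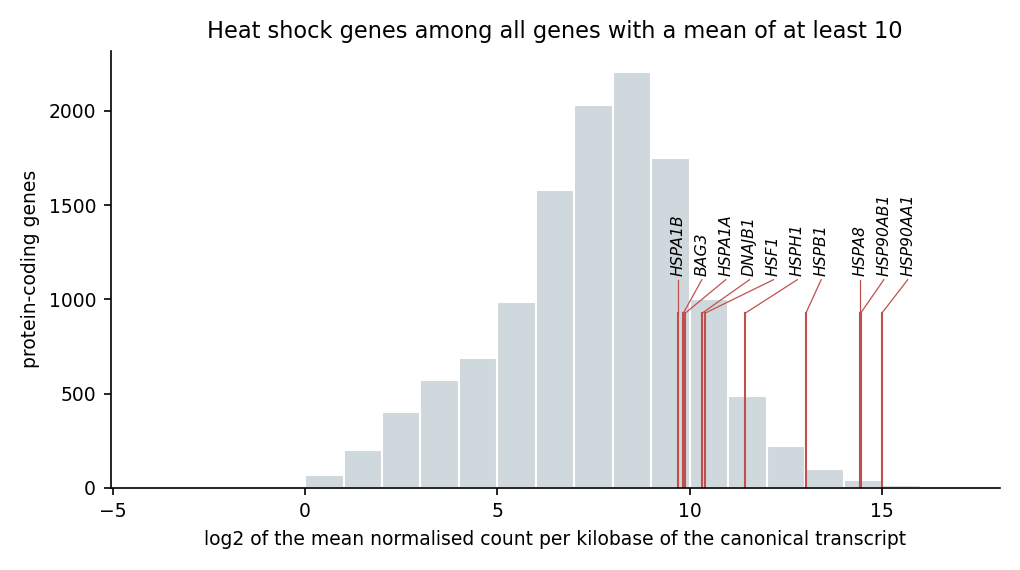
The histogram counts the 12359 ranked protein-coding genes by the log2 of their mean normalised count per kilobase of canonical transcript, and red lines mark the 10 heat shock genes. All 10 lines lie in the upper part of the distribution, from HSPA1B at 826 per kilobase to HSP90AA1 at 32552 per kilobase.

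HSPA1A and HSPA1B share most of their sequence, and short reads from the shared part cannot be told apart. Whether such reads were counted in the levels of the 2 genes is not given in the sources used here. Their coding sequences have 1923 bases each and differ at 4 of them, which is 99.8% identity, and the longest run without a difference is 1709 bases. The 4 differences are silent, so that both genes encode the same 641 amino acids. A stretch of 60 bases near the end of the coding sequence, bases 1846 to 1905 counted from the first base of the start codon, is shown because it holds 2 of the 4 differences, which are in capitals. It lies at chr6:31817602-31817661 for HSPA1A and at chr6:31829796-31829855 for HSPA1B on the plus strand of GRCh38.
HSPA1A: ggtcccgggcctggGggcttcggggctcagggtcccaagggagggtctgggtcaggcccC
HSPA1B: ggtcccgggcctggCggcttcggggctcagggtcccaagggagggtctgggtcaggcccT

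To show how far this touches each gene, every window of 50 bases within an exon of the canonical transcript was searched for on both strands of the 24 primary chromosomes. Of 2351 such windows in HSPA1A, 1766 occur at 2 or more places, which is 75.1%, and for HSPA1B the share was 71.6%. All 1766 recur in the partner gene, and 61 of the windows of HSPA1A also recur in HSPA1L. Windows of 100 bases lowered the shares only to 72.4% and 68.9%. The other genes were less repeated. At 50 bases, the share was 23.1% for HSPA8, 22.8% for HSP90AA1, 21.6% for HSP90AB1, 18.1% for HSPB1, 4.49% for DNAJB1 and 0.252% for HSPH1, and no window of HSF1 or BAG3 recurred. At 100 bases, none of these 6 shares exceeded 7.96%, the value of HSPB1. Processed pseudogenes held many of the copies, such as HSP90AA2P for 306 windows of HSP90AA1, HSP90AB3P for 298 windows of HSP90AB1, HSPA8P1 for 118 windows of HSPA8 and HSPB1P1 for 91 windows of HSPB1. For HSPA8, 131 windows recur in MGC4859, a long noncoding RNA gene listed with a mean normalised count of 0.172. The 4 pseudogenes have no row of their own in the table. These 5 loci were named after their values were seen.

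The read length and the rule for reads with several positions are not given in the sources used here, so the sum of HSPA1A and HSPA1B is the firmer quantity, and it too would miss reads if such reads were dropped. Divided by windows that occur once, HSPA1A had 3878 and HSPA1B 2962 mean normalised counts per 1000 windows of 50 bases. This would move HSPA1A from place 8 to place 5 in the order and HSPA1B from place 10 to place 7. With windows of 100 bases the places were 6 and 8, and the summed pair per kilobase took place 6. The scale applies only if reads with several positions were left out. Windows across exon joins were not counted, so a gene with several exons has fewer windows for its length. HSF1, with no repeated window, thus stood 1.43 times above its level per kilobase on this scale. The ratio of HSPA1A to HSPA1B in mean normalised counts was 1.09.

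**Figure D4:**
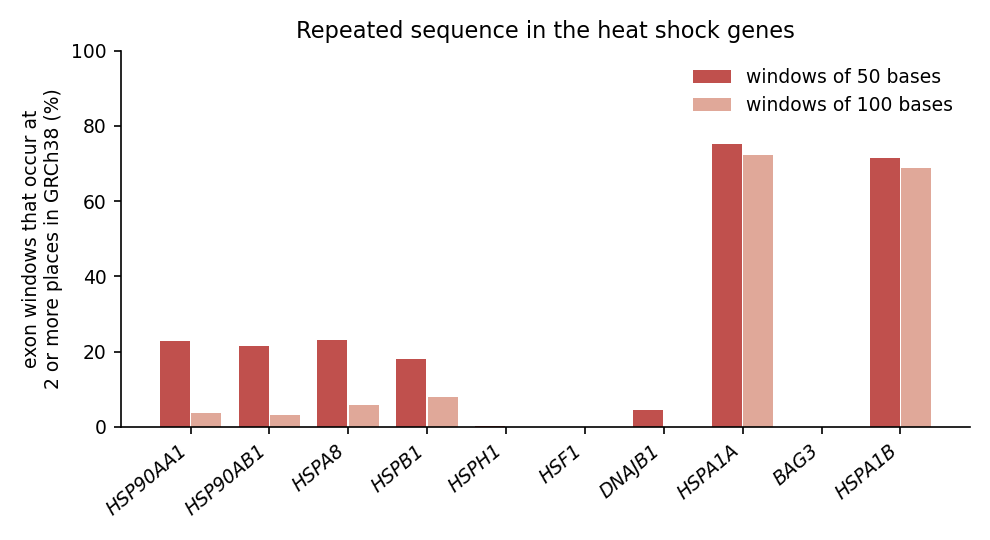
Bars give the percent of exon windows, of 50 bases (dark) and 100 bases (pale), that occur at 2 or more places in GRCh38 for each of the 10 genes. HSPA1A and HSPA1B stand apart at 75.1% and 71.6% for 50 bases, whereas HSF1 and BAG3 are at 0.

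HSPB1, the small heat shock protein HSP27, lies on chromosome 7 from 76302673 to 76304295. Its mean normalised count of 6433 over a transcript of 777 bases gave 8279 per kilobase, with rank 163. HSPB1 was 143-fold above CRYAB, the higher of the 2 other small heat shock protein genes with a mean of at least 10, which stood at 57.9 per kilobase and overlaps HSPB2 on the opposite strand. By the union of exons, CRYAB and HSPB6 stood at 10.2 and 10.9, and HSPB1 was 388-fold above CRYAB. Of 8 other small heat shock protein genes, 5 are listed, and HSPB2, HSPB7 and HSPB9 had mean normalised counts under 10. The co-chaperones HSPH1, DNAJB1 and BAG3 stood between 911 and 2785 per kilobase. HSPH1, the HSP110 exchange factor, lies on chromosome 13 from 31134973 to 31162388 on the minus strand. It had a mean normalised count of 14603 and a level of 2785 per kilobase, and HSPA8 was 7.87-fold above it, or 4.51-fold by coding length.

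DNAJB1, the J-domain protein that recruits HSP70 to clients, lies on chromosome 19 from 14514769 to 14560391 on the minus strand. It had a mean normalised count of 2873 and 1281 per kilobase, and HSPA8 was 17.1-fold above it, with 9.09-fold by coding length and 29.1-fold by the union of exons. BAG3 joins HSP70 to small heat shock proteins and to autophagy. It lies on chromosome 10 from 119651380 to 119677819, and it had a mean normalised count of 2334 and 911 per kilobase. HSPB1 was 9.09-fold above BAG3, or 4.65-fold by the union of exons. Among the 6 related genes, the order depended on the length used. BAG6 and BAG5 were highest per kilobase of canonical transcript, at 1588 and 669, and HSPBP1 and BAG2 lowest, at 324 and 317. Per kilobase of coding sequence, BAG2 was highest at 3334, followed by BAG5 at 2337 and BAG6 at 1750, and HSPBP1 was lowest at 492. BAG3 was 2.17-fold above BAG1 per kilobase of canonical transcript and 3.77-fold above it by the union of exons, but below it by coding length, at 1353 against 1547, so no direction between the pair is given.

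The wider chaperone network was read from a list of 60 other genes, of which 51 are listed and 46 had a mean normalised count of at least 10. The median of these 46 was 820 per kilobase, and 14 of them lay above the median of the 10 heat shock genes. Of 14 co-chaperones that serve HSP70 and HSP90, all are listed. PTGES3, the HSP90 co-chaperone p23, was highest at 6628 per kilobase, and STIP1, which bridges HSP70 and HSP90, followed at 3552, although ST13 followed PTGES3 by coding length and by the union of exons. UNC45A and FKBP5 were the lowest of those above 10, at 287 and 36.8 per kilobase. Of 12 other HSP70 and HSP110 genes, the compartment-specific forms led. HSPA5 of the endoplasmic reticulum stood at 14612 and HSPA9 of mitochondria at 8365 per kilobase. HSPA8 was 2.62-fold above HSPA9, or 1.42-fold by coding length. It stood above HSPA5 per kilobase of canonical transcript, at 21905, and by the union of exons, at 10227 against 8774. By coding length HSPA8 was below HSPA5, at 25589 against 29201. HSPA12B and HSPA12A were lowest at 4.90 and 1.96 per kilobase. Among 8 further genes known as HSF1 targets, the polyubiquitin gene UBB stood at 20323 and SERPINH1, a collagen chaperone, at 10535 per kilobase. DNAJB4 and HSPE1 were the lowest of these, at 871 and 746 per kilobase. By the union of exons, DNAJA1 took the place of SERPINH1 and DNAJB6 that of DNAJB4 in this order.

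**Figure D5:**
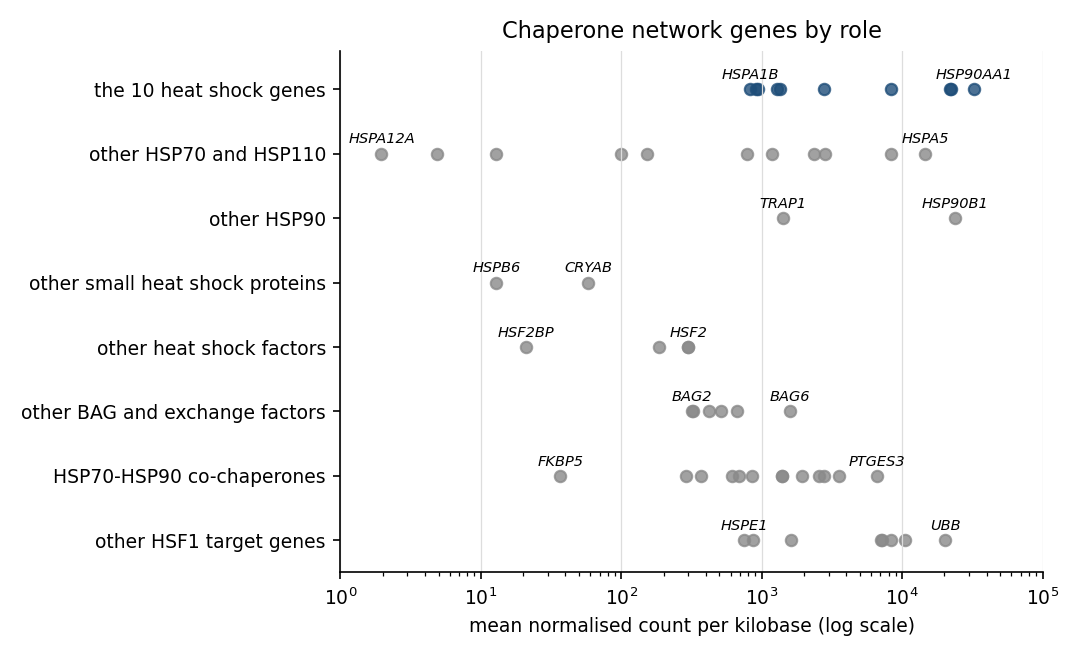
Each point is 1 gene with a mean normalised count of at least 10, plotted by its level per kilobase on a log axis, with the 10 heat shock genes in the first row and the 46 other network genes by role below, and the highest and lowest gene of each row named. The 10 genes span 826 to 32552 per kilobase, whereas the other HSP70 and HSP110 genes span 1.96 to 14612 per kilobase.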

How the data were processed

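RNA-seq was performed on 3 vehicle and 3 DOX cultures of BT-549/tet-WDR5shRNA cells. Stranded poly(A) libraries were aligned to GRCh38 with STAR, and gene counts were normalised with DESeq2 by the authors. The counter, its use of strand, the read length and the tool versions are not given in the sources used here. The deposited table holds 1 row per gene symbol with 6 columns of values. The mean normalised count is a signal that the authors averaged over all 6 libraries. The other 5 columns hold the authors' own comparison of DOX with vehicle (log2 fold change, its standard error, the Wald statistic, and p-values before and after adjustment), and these were neither used nor printed. A count test had been planned for values of single libraries, and since none were analysed no test was run.

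Of 19792 symbols, 17921 matched GENCODE 44 directly, 709 matched through an older symbol in RefSeq and 1162 did not match. Levels were divided by the length of the canonical transcript, and 12359 protein-coding genes with a mean of at least 10 were ranked. Exon windows were compared with the 24 primary chromosomes as exact matches on both strands. Promoters were taken from RefSeq (GRCh38.p14, 35116 of 300 bases). Ranks, window search and motif search were checked on artificial data with known answers. The members and lists were chosen with earlier results of these data known. Genes named are the 10 members, WDR5, markers, and the 2 highest and 2 lowest genes of each role in the network list, and others are named as chosen after their values were seen or by their relation to a member (HSPA1L, HSPA6, BAG1 and small heat shock proteins under 10) or since another length put them among the highest or lowest (ST13, DNAJA1, DNAJB6). Computation used Python 3.11.15 with numpy 2.4.6, pandas 2.3.3, numba 0.67.0 and matplotlib 3.10.9.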

Additional observations from a re-analysis of the deposited data

How the results depend on the processing

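No paired analysis was possible because the means pool all libraries, and for the same reason the tests of DOX against vehicle, the other tools and leaving out a replicate were not run. Depth per library is unknown. A value was counted as the same within 1.5 times. In the top 10 percent of levels lay 5 genes, and 5 also under coding length and among genes with a mean of at least 50. The number was 7 among all listed genes with a gene model. By the union of all exons, chosen after seeing the data, it was 6. All of these counts were within 1.5 times of the first. The share of the summed means was 0.922% over all listed genes. Of 45 pairs of genes, 43 kept their order with coding length and 43 with the mean normalised count itself, 39 with the union of exons, 39 with single-place windows of 50 bases and 41 with those of 100 bases, where the last 3 settings were chosen after seeing the data. With windows of 50 bases HSPA1A took place 5 in the order, and with those of 100 bases place 6. The element was present in 7 members and 5.16% of genes with 1 mismatch, and in 7 members and 16.2% of genes with 2 units. Single levels were most sensitive to length: coding length moved the rank of 8 of 10 genes and the union of exons that of 7 by over 1.5 times. For DNAJB1, the union of exons gave the top 26.6% in place of the top 12.0%, and for HSPA1A coding length gave the top 30.5% in place of the top 16.4%. Of the folds between genes, which were computed under the union of exons and under single-place windows after seeing the data, 2 turned direction with coding length: HSF1 over HSBP1 became 0.161 and BAG3 over BAG1 became 0.875.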

Other observations

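HSPE1 and HSPD1 encode the mitochondrial HSP10 and HSP60 partners, and their levels were far apart at 746 and 7219 per kilobase. TTC4, an HSP90 co-chaperone, was listed with a mean normalised count of only 5.29, the lowest of the 14 co-chaperones. Both were singled out after their values were seen. HSPE1 is annotated within the span of HSPD1 on the opposite strand, and whether reads were counted by strand is not given in the sources used here. How reads that overlap several genes were counted is not given either. A low count of HSPE1 or TTC4 need not mean low expression. Whether overlap with other genes lowered either count was not tested.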
